A study of Oryza sativa with 36 samples.

Results

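The genes described here are 34 rice genes of the protein synthesis machinery, followed in endosperm and embryo of seeds taking up water. They were chosen by name: 25 carry a ribosomal protein symbol or code for a protein bound to the ribosome, and 9 code for translation factors. Each was read from the probe set assigned to that gene alone with the highest mean over 36 arrays. All 34 were measured, among 17905 genes with a probe set of their own and 57194 rice probe sets. Of the 25, 12 belong to the large subunit and 11 to the small subunit, among them the scaffold proteins RACK1A and RACK1B. The other two, RPL18 and RPL27, carry the synonyms CL18 and CL27 in the gene table, a style of name used for chloroplast ribosomal proteins, so the label cytosolic goes against their synonyms and they are given apart.

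A cytosolic ribosome has a small subunit, which reads the messenger RNA, and a large subunit, which joins the amino acids. Initiation factors bring the capped messenger to the small subunit, and elongation factors feed the ribosome with charged transfer RNA. Dry seeds hold stored messenger RNA and stored ribosomes, and water uptake (imbibition) restarts protein synthesis before new transcripts build up.

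Rice seeds, of the cultivar Nipponbare where the labels name one, imbibed sterile distilled water with air bubbling at 10 ml per minute, at 30 °C in darkness. Endosperm (replicates 1, 2 and 3) and embryo (replicates 1, 4 and 5, called embryonic axis in the growth protocol) were sampled after 0, 4, 8, 12, 16 and 24 h, with 3 arrays in each of the 12 groups. No mutant and no agent other than water was used, and 0 h is the dry seed of the same tissue. The labels do not say whether replicates came from separate seed lots, so p-values measure the spread between arrays, which may be technical. Embryo replicates 4 and 5 were harvested on later days than any endosperm replicate, so tissue and harvest day largely go together. In each replicate the 16 h and 24 h samples were harvested on later days than the 0 h sample.

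Values are log2 signals, and a difference of 1 is a doubling on that scale. A probe set was called when limma's Benjamini-Hochberg adjusted p over all probe sets was under 0.05 and the log2 difference was at least 1 in size. Because the signals are relative to the other RNA on an array, and bulk tissue was used, fewer cells of a type and less RNA per cell cannot be told apart. Array medians lay between 2.72 and 2.81 in endosperm and between 2.80 and 2.93 in embryo, and replicate arrays correlated at 0.989 to 0.998 across probe sets. The median SD of a member within a group was 0.09 in endosperm and 0.06 in embryo. The 75th percentiles of the arrays ran from 4.12 to 4.53 in endosperm and from 5.21 to 5.77 in embryo. Whether the tissues were normalized apart is not stated, and the cause of this gap was not tested. Differences between tissues depend on the scaling more than changes within a tissue do. Markers of embryo and starchy endosperm matched the labels, with both measured embryo markers (OSH1 and OSH6) lower in endosperm and all 8 starchy endosperm markers higher there at 0 h and 24 h. Of 4 aleurone markers 1 (AMY3A) was called higher in endosperm at 0 h and 3 at 24 h, and AMY1A, an alpha-amylase gene, differed by -0.02 and -0.04.

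In the deposited values the ribosomal protein genes moved mainly between 4 h and 12 h of imbibition. In endosperm the sizes of the steps depend on the scaling. In the deposited values and under quantile normalization, the median step of these genes from 4 h to 12 h there exceeded that of all probe sets. Centring shifts all probe sets of an array alike, so it cannot change that gap. The median log2 change from 0 h over the 23 cytosolic ribosomal protein genes in endosperm was 0.07 after 4 h of imbibition, 0.41 after 8 h, 0.87 after 12 h, 0.93 after 16 h and 0.84 after 24 h. In embryo the median was -0.05 after 4 h, 0.30 after 8 h, 0.44 after 12 h, 0.45 after 16 h and 0.41 after 24 h. From 4 h to 12 h all 3 arrays at 12 h lay above all 3 arrays at 4 h for 22 of the 23 genes in endosperm, where 13.9% of all probe sets did so, with a median step of 0.87. In embryo 20 of 23 did so, against 18.4% of all probe sets, with a median step of 0.49, and 2 lay below (15.7% of all probe sets). QM1, the plant name of a large subunit protein also known as L10, was the endosperm gene outside the 22, with a step of -0.08. The median step of all probe sets was near 0 in this interval, at -0.005 in endosperm and 0.003 in embryo.

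**Figure D1:**
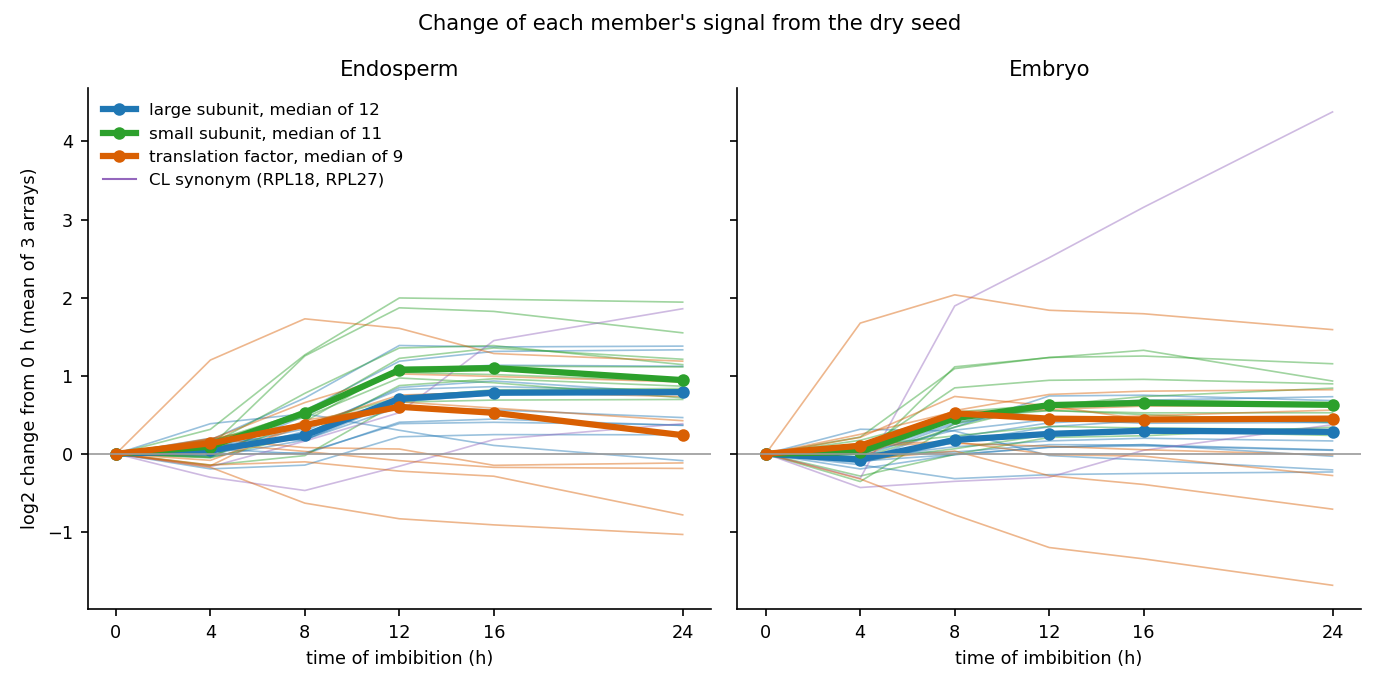
Log2 change from 0 h (vertical axis, mean of 3 arrays) over hours of imbibition (horizontal axis) for each of the 34 genes in endosperm (left) and embryo (right). Thin lines are genes coloured by role and thick lines are medians of the 12 large subunit, 11 small subunit and 9 factor genes. In the deposited values shown, both subunit medians stay near 0 at 4 h and level off from 12 h, higher in endosperm than in embryo.

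Before and after that interval the median steps were smaller in the deposited values. From 0 h to 4 h all 3 arrays lay higher for 3 of 23 genes in endosperm and for 4 of 23 in embryo, against 9.88% and 12.9% of all probe sets, and lower for 0 and 7 of 23, against 11.9% and 41.5%. From 12 h to 24 h the median step was -0.01 in endosperm and -0.03 in embryo. Over those hours the steps of the 23 genes ran between -0.39 (QM1) and 0.15 (RPL30) in endosperm and between -0.30 (RPS10-1) and 0.22 (RACK1A) in embryo. In endosperm 12 of the 23 genes had their highest mean at 16 h and 6 at 12 h, and in embryo 13 and 5 did. With every array centred on the hybridisation spike-in controls, the endosperm steps were alike in size. Their medians were 0.38 from 0 h to 4 h, 0.38 from 4 h to 12 h and 0.39 from 12 h to 24 h. Over all probe sets the medians were 0.29, -0.49 and 0.40. Centring leaves the gap between the 23 genes and all probe sets as it was in the deposited values. In embryo the median steps were 0.34, 0.45 and -0.04 under that scaling, and over all probe sets 0.35, -0.03 and -0.02. All arrays at 12 h then lay above those at 4 h for 4 of 23 genes in endosperm and for 9 of 23 in embryo, where 2.28% and 9.24% of all probe sets did so. Centred on the 75th percentile, the embryo steps were -0.35, 0.39 and -0.02, with 20 of 23 genes below from 0 h to 4 h, where 77.7% of all probe sets were.

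At 24 h against 0 h, 10 of the 34 genes were called higher and 1 lower in endosperm, where 7.33% of all probe sets were called higher and 4.57% lower. Of the 10, 3 code for large subunit proteins, 5 for small subunit proteins, 1 for a translation factor (eIF-4A-3), and the last is RPL18. In embryo 3 were called higher and 1 lower, where 12.0% of all probe sets were called higher and 10.1% lower, so the share called higher was below the background there. Most changes of ribosomal protein genes were under a doubling. By the adjusted p alone, with no minimum fold, 22 of 23 cytosolic ribosomal protein genes were higher and 0 lower in endosperm, against 15.1% and 23.1% of all probe sets. In embryo 17 were higher and 2 lower, against 19.2% and 49.2%. The median log2 change over these 23 genes was 0.84 in endosperm and 0.41 in embryo, and over all probe sets -0.03 and -0.05. Endosperm medians stayed above 0 under each scaling tried (0.50 to 1.07), whereas in embryo centring on the 75th percentile gave a median of 0.02, with 9 of 23 higher and 6 lower. Over all probe sets the medians under that scaling were -0.37 in endosperm and -0.43 in embryo. Under spike-in centring 18 of 23 passed as higher in endosperm and 10 of 23 in embryo, with 0 lower. All probe sets then had medians of 0.20 and 0.30, and the 23 genes 1.07 and 0.76. The shares of all probe sets passing the adjusted p alone were not computed under these scalings. Under quantile normalization the median of the 23 genes was 0.78 in endosperm and 0.69 in embryo, against -0.008 and -0.012 over all probe sets. The other 2 scalings shift all probe sets of an array alike, so they could not change the gap between these medians. With arrays centred on the 75th percentile the endosperm calls of RPL3, RPL39C, RPS26, RPS27AA, RACK1A and eIF-4A-3 were lost, at log2 changes of 0.77 to 0.99.

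**Figure D2:**
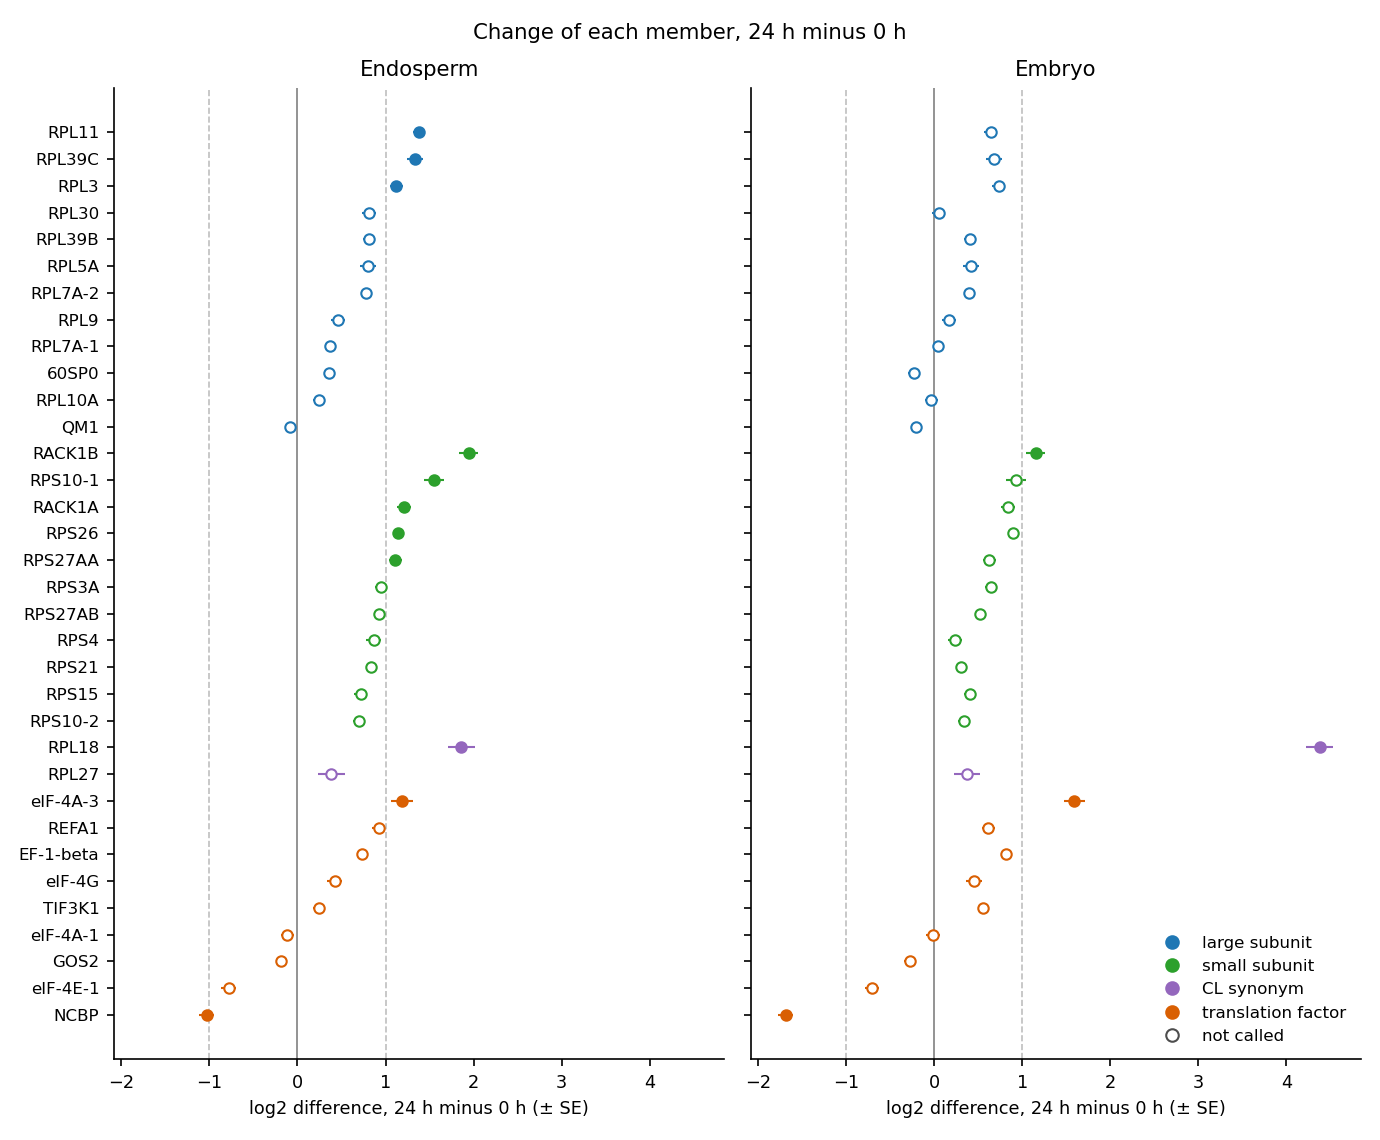
Log2 difference between 24 h and 0 h (horizontal axis, with SE from the fit) for each of the 34 genes in endosperm (left) and embryo (right), grouped by role. Filled points were called and dashed lines mark a log2 difference of 1 in either direction. RPL18 lies far to the right in embryo, and NCBP is the lowest point in both tissues.

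Large subunit genes had smaller changes than small subunit genes at the median. In endosperm 11 of 12 passed the adjusted p alone as higher, and the median change was 0.79. The genes called there were RPL11 (1.38 ± 0.07, SE), RPL39C (1.33 ± 0.09) and RPL3 (1.12 ± 0.08). RPL3 codes for a protein near the peptidyl transferase centre of the large subunit. Its log2 signal in endosperm was 10.32, 10.15 and 10.15 at 24 h, against 8.98, 9.10 and 9.18 at 0 h. In embryo RPL3 had 12.31, 12.16 and 12.35 at 24 h, against 11.48, 11.66 and 11.49 at 0 h. The arrays of the 2 times do not overlap in either tissue, and the embryo change of 0.73 ± 0.08 is too small to be called.

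In embryo 6 of 12 large subunit genes were higher and 2 lower by the adjusted p alone, with a median of 0.28. The lower ones were 60SP0, which codes for the P0 protein of the acidic stalk that contacts elongation factors, and QM1. For 60SP0 the embryo arrays read 12.61, 12.47 and 12.53 at 24 h, against 12.86, 12.79 and 12.66 at 0 h, a change of -0.23 ± 0.07. The endosperm arrays read 10.52, 10.36 and 10.44 at 24 h, against 10.21, 10.01 and 10.02 at 0 h, a change of 0.36 ± 0.07. Both changes of 60SP0 are well under a doubling and depend on the scaling: under spike-in centring the endosperm value was 0.59 and the embryo value 0.12, neither past the adjusted p, and centred on the 75th percentile they were 0.03 and -0.62. QM1 changed by -0.09 ± 0.05 in endosperm and by -0.21 ± 0.05 in embryo. Its probe sets disagree: a dim one (mean level 4.57) fell by 4.32 in endosperm and by 4.66 in embryo, while the brightest one, used here, did not fall by a doubling in either. Another bright one (mean level 12.1) changed by -0.59 in endosperm, past the adjusted p, and by 0.04 in embryo, which did not pass. RPL10A, RPL7A-1, RPL30 and RPL9 did not pass in embryo (-0.03, 0.04, 0.05 and 0.16). RPL5A, which codes for the protein that binds 5S rRNA, changed by 0.80 ± 0.09 in endosperm and 0.42 ± 0.09 in embryo.

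On their brightest probe sets small subunit genes all passed the adjusted p alone as higher at 24 h, 11 of 11 in each tissue. In endosperm all 11 also passed under each of the 3 scalings, whereas in embryo 6 passed when centred on the 75th percentile and 7 under spike-in centring. The median log2 change of the 11 was 0.94 in endosperm (range 0.70 to 1.94) and 0.63 in embryo (range 0.24 to 1.15). A further probe set of RPS4 (mean level 10.5) did not pass in endosperm (0.20), and one of RPS21 (10.1) did not pass in embryo (0.22). Those of RPS3A with mean levels of 11.8 and 10.9 passed in both tissues. RACK1B changed most. This WD-repeat protein sits on the small subunit and binds signalling proteins. Its log2 signal in endosperm was 9.79, 9.57 and 9.70 at 24 h, against 7.46, 7.77 and 8.00 at 0 h, a 3.84-fold rise (1.94 ± 0.10 in log2, adjusted p = 1.17e-13, limma). In embryo RACK1B had 11.24, 11.04 and 11.32 at 24 h, against 9.78, 10.18 and 10.17 at 0 h, a 2.22-fold rise (1.15 ± 0.10, adjusted p = 3.47e-10). With arrays centred on the 75th percentile the embryo change was 0.77 and no longer called.

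RPS10-1, one of a pair of genes for protein S10, rose 2.93-fold in endosperm, where its signal was 7.53, 7.41 and 7.38 at 24 h, against 5.63, 5.89 and 6.16 at 0 h (1.55 ± 0.11, adjusted p = 1.73e-11, limma). Its embryo signal was 9.14, 9.48 and 9.42 at 24 h, against 8.40, 8.48 and 8.37 at 0 h, a change of 0.93 ± 0.11 that just misses a doubling. RACK1A in endosperm had 10.20, 10.16 and 10.15 at 24 h, against 8.89, 8.94 and 9.05 at 0 h (1.21 ± 0.08). RPS26 (1.14 ± 0.06) and RPS27AA (1.11 ± 0.08), which codes for ubiquitin fused to protein S27a, were also called in endosperm. The remaining small subunit genes, RPS3A, RPS27AB, RPS4, RPS21, RPS15 and RPS10-2, lay between 0.70 and 0.94 in endosperm and between 0.24 and 0.65 in embryo.

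RPL18 had a higher 24 h change in embryo than any of the 23 cytosolic genes. Its log2 signal in embryo was 9.10, 8.75 and 8.53 at 24 h, against 4.46, 4.24 and 4.55 at 0 h, a 20.8-fold rise (4.38 ± 0.15, adjusted p = 3.48e-18, limma). In endosperm it was 5.30, 5.02 and 5.0 at 24 h, against 3.04, 3.56 and 3.15 at 0 h, a 3.62-fold rise (1.86 ± 0.15). The embryo mean was 4.42 in the dry seed, 4.10 after 4 h, 6.31 after 8 h, 6.93 after 12 h, 7.57 after 16 h and 8.79 after 24 h. Dry-seed signals of RPL18 in endosperm lie close to the array medians, and its probe set is of a kind that may match several transcripts. RPL27, the other gene with a CL synonym, changed by 0.39 ± 0.15 in endosperm and 0.37 ± 0.15 in embryo. Its mean was highest at 24 h in both tissues, as was that of RPL18, but 2 of its 3 probe sets fell between 0 h and 24 h.

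Among the translation factors only the helicase gene eIF-4A-3 had moved by a doubling at 4 h. At 4 h against 0 h 1 of the 34 genes was called higher and 0 lower in endosperm (3.27% and 0.261% of all probe sets), and 1 higher and 0 lower in embryo (7.12% and 4.24%), and in both tissues the gene was eIF-4A-3. It codes for the RNA helicase eIF4A, which unwinds the leader of the messenger during initiation. Its endosperm signal was 9.45, 9.27 and 8.94 at 4 h, against 7.87, 8.04 and 8.15 at 0 h, a 2.30-fold rise (1.20 ± 0.12, adjusted p = 3.52e-08, limma). In embryo it was 11.55, 11.38 and 11.01 at 4 h, against 9.54, 9.91 and 9.48 at 0 h, a 3.19-fold rise (1.67 ± 0.12, adjusted p = 1.66e-11). The arrays of the 2 times do not overlap in either tissue. The highest mean of eIF-4A-3 came at 8 h (9.75 in endosperm and 11.68 in embryo), and by 24 h the change from 0 h was 1.19 ± 0.12 in endosperm and 1.59 ± 0.12 in embryo. By the adjusted p alone 4 genes were higher and 0 lower at 4 h in endosperm (7.56% and 7.24% of all probe sets), or 5 and 2 with the replicate number as a block, and 6 were higher and 5 lower in embryo (13.1% and 36.6%). These small changes follow the scaling: centred on the 75th percentile 2 were higher and 15 lower in endosperm and 1 and 27 in embryo, and under spike-in centring 1 was higher and 0 lower in each tissue. The medians of all probe sets moved too, to -0.22 in endosperm and -0.34 in embryo centred on the 75th percentile. Under spike-in centring they were 0.29 and 0.35. The shares of all probe sets passing were not computed under these scalings, so these counts have no background. Leaving out single arrays gave 2 to 9 higher and 0 to 3 lower in endosperm, and 2 to 5 higher and 3 to 6 lower in embryo.

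The related helicase gene eIF-4A-1 did not pass the test at 24 h on its brightest probe set. That probe set had 11.76, 11.47 and 11.57 in endosperm at 24 h, against 11.75, 11.73 and 11.67 at 0 h, and in embryo 13.36, 13.45 and 13.27 at 24 h, against 13.41, 13.50 and 13.21 at 0 h. The changes of -0.12 ± 0.08 and -0.01 ± 0.08 did not pass the adjusted p. Its other probe sets disagree: one with a mean level of 10.3 fell by 0.19 in endosperm and by 0.69 in embryo by the adjusted p alone, and a dim one (4.11) fell by 1.11 in embryo.

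**Figure D3:**
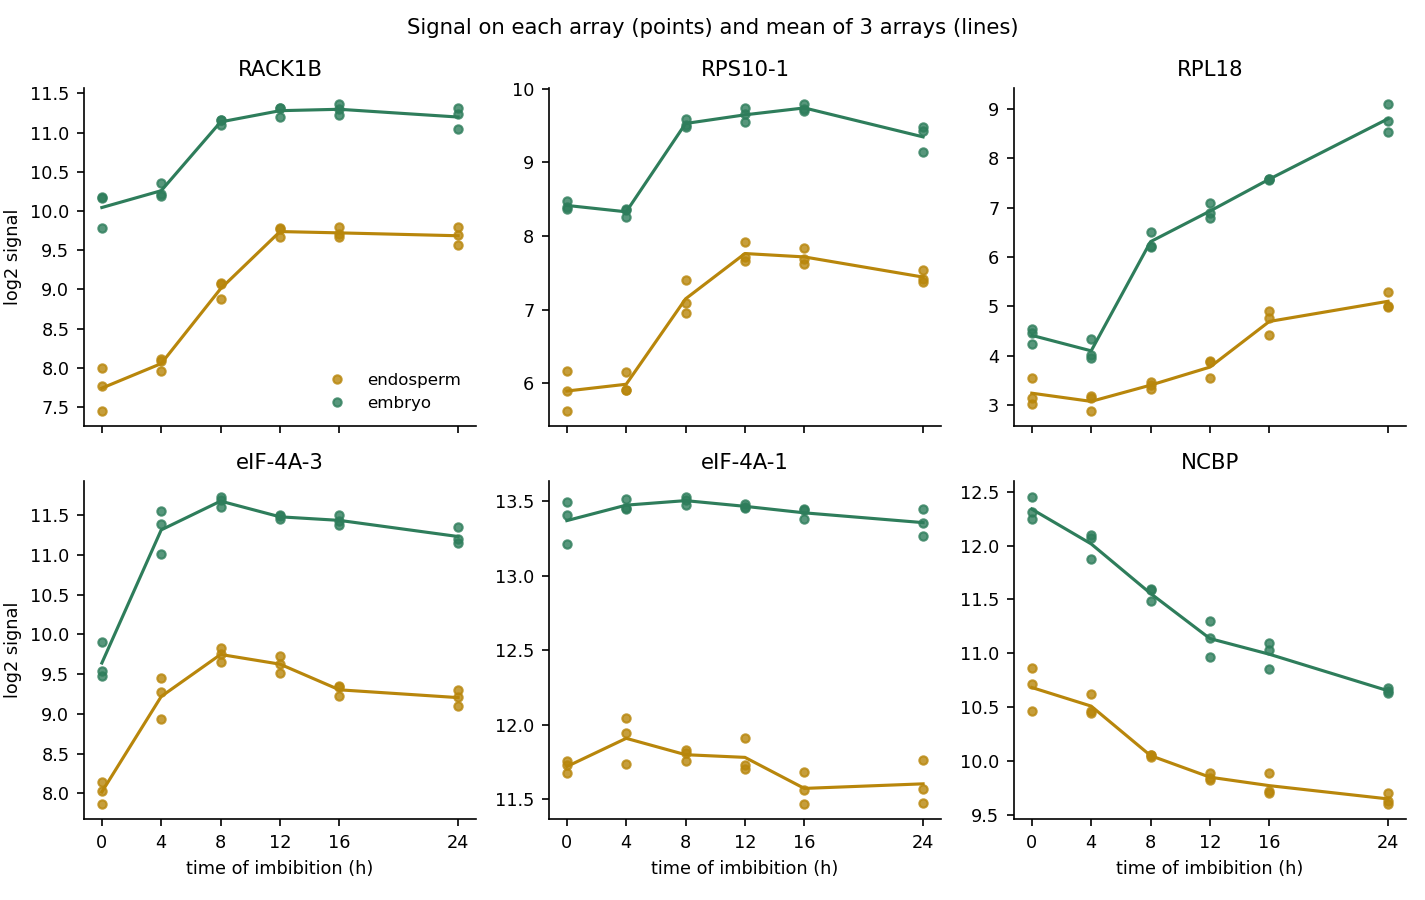
Log2 signal (vertical axes, scaled per gene) on each array (points) and mean of 3 arrays (lines) over hours of imbibition (horizontal axes) for RACK1B, RPS10-1, RPL18, eIF-4A-3, eIF-4A-1 and NCBP. Endosperm points lie below embryo points for each of the 6 genes, eIF-4A-3 is already up at 4 h, and NCBP declines throughout.

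Genes for cap-binding proteins moved the other way. NCBP, a cap-binding protein of the eIF4E family, was the gene called lower at 24 h in both tissues. Its embryo signal was 10.63, 10.65 and 10.68 at 24 h, against 12.25, 12.45 and 12.31 at 0 h, a fall to 0.31 of the dry-seed signal (-1.68 ± 0.09, adjusted p = 3.41e-15, limma). In endosperm it was 9.64, 9.61 and 9.71 at 24 h, against 10.71, 10.87 and 10.47 at 0 h (-1.03 ± 0.09, adjusted p = 2.08e-10). That endosperm call rests on the threshold: it was lost without replicate 2 at 0 h (-0.94), under spike-in centring (-0.80) and under quantile normalization (-0.94). The gene eIF-4E-1, which codes for the main cap-binding protein, changed by -0.78 ± 0.08 in endosperm and -0.71 ± 0.08 in embryo, past the adjusted p and short of a doubling. Under spike-in centring the values of -0.55 and -0.36 did not pass, and centred on the 75th percentile eIF-4E-1 was called lower in both tissues (-1.12 and -1.09).

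Of the other factors, both elongation factor genes passed the adjusted p as higher, short of a doubling. REFA1 (elongation factor 1-alpha, which delivers aminoacyl-tRNA) changed by 0.92 ± 0.07 in endosperm and 0.61 ± 0.07 in embryo, on a probe set that may match several transcripts. EF-1-beta, the nucleotide exchange subunit, changed by 0.73 ± 0.05 and 0.82 ± 0.05 in the same tissues. Among initiation factors eIF-4G, the scaffold of the cap-binding complex, changed by 0.42 ± 0.09 in endosperm and 0.45 ± 0.09 in embryo, and TIF3K1, the eIF3 subunit k gene, by 0.24 ± 0.07 and 0.56 ± 0.07. GOS2, which codes for eIF1 and acts in start codon selection, changed by -0.19 ± 0.06 and -0.28 ± 0.06. GOS2 signals lay between 13.80 and 14.20 in endosperm at 0, 4, 12 and 24 h, where the brightest probe set of an array reached 14.29 to 14.50, so a larger change may not have been measurable on that probe set. A second bright probe set of GOS2 (mean level 13.5) fell by 0.88 in endosperm and 0.85 in embryo, past the adjusted p. A dimmer one (mean level 7.74) fell by 1.09 in endosperm and 2.16 in embryo.

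Over all 6 times, an F test with a range of group means of at least 1 called 15 of 34 genes in endosperm and 6 of 34 in embryo, where 17.2% and 29.0% of all probe sets were called. The endosperm count included 8 of 11 small subunit and 3 of 12 large subunit genes. In embryo the ribosomal protein genes called were RACK1A, RACK1B and RPS10-1, with 0 of 12 large subunit genes. By the adjusted p alone 34 genes varied in endosperm and 32 in embryo (34.6% and 63.2% of all probe sets), and under spike-in centring 21 and 14 did. The same numbers were called there with the minimum range, where 19.6% and 29.3% of all probe sets were. The genes that did not pass in embryo were RPL30 (adjusted p = 0.552, limma) and eIF-4A-1 (0.379).

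The next comparison asked whether the 24 h change differed between tissues, as the change in endosperm minus the change in embryo. By the call rule 0 of 34 genes had a larger change in endosperm and 1, RPL18, a larger one in embryo (-2.52 ± 0.22, adjusted p = 6.78e-10, limma), where 7.69% of all probe sets were called in each direction. By the adjusted p alone 23 were higher and 2 lower, against 16.0% and 12.0% of all probe sets. Of the cytosolic ribosomal protein genes 21 of 23 were higher and 0 lower, and the median difference was 0.39, against 0.02 over all probe sets. That count used the brightest probe sets. It was 19 with the mean over probe sets and 17 with harvest day as a block. A second bright probe set of QM1 (mean level 12.1) gave -0.63, past the adjusted p. Those of RPS3A at 11.8 and 10.9 (0.002 and -0.20) and of RPS4 at 10.5 (-0.12) did not pass. Those of RPL39B (0.40) and of RPS21 at 10.1 (0.48) passed as higher. The largest differences were those of RACK1B (0.79 ± 0.15), RPL30 (0.76 ± 0.11) and RPL11 (0.74 ± 0.10). RPL30 changed by 0.82 in endosperm and by 0.05 in embryo. The count of 21 fell to 10 under quantile normalization and to 0 under spike-in centring, where the medians were 0.24 and 0.27. Over all probe sets the medians were then 0.003 and -0.11, and 20 and 22 of the 23 genes kept a positive difference. Spike-in centring shifts all probe sets of an array alike, so it could not change the gap between members and all probe sets. The factors divided, with NCBP (0.65 ± 0.12, from a smaller fall in endosperm) and REFA1 (0.31 ± 0.10) higher, TIF3K1 (-0.32 ± 0.10) lower, and 6 of 9 not passing.

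**Figure D4:**
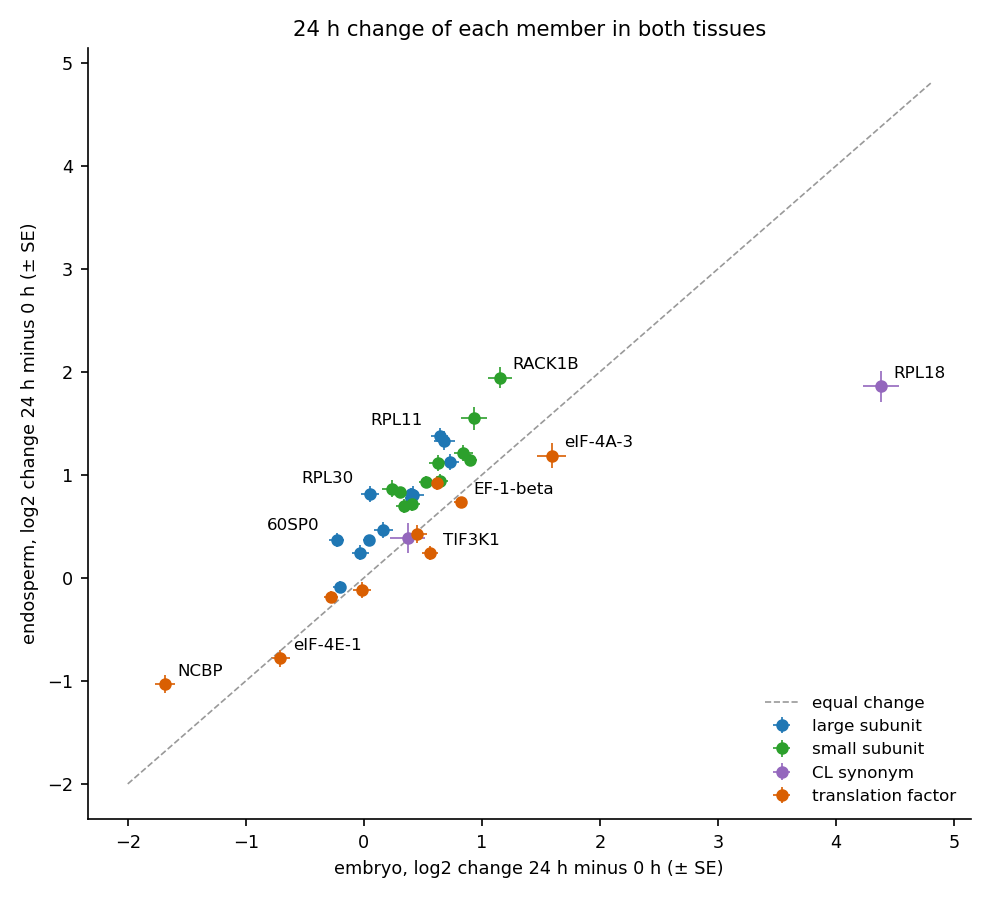
Log2 change from 0 h to 24 h in endosperm (vertical axis) against that in embryo (horizontal axis), with SE from the fit, for the 34 genes coloured by role. The dashed line marks equal change. Above the line lie 27 of the 34 genes, among them the 23 cytosolic ribosomal protein genes. Below it lie RPL18, eIF-4A-3, EF-1-beta, TIF3K1, eIF-4A-1, eIF-4E-1 and eIF-4G.

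Across the 34 genes the 24 h changes in the 2 tissues correlated at 0.77 (Pearson), and at 0.88 over 32 genes without RPL18 and RPL27, as a description across genes measured on the same arrays. Some other readouts also changed over time, upwards or downwards. The array's rRNA control probe sets averaged 7.04 at 24 h and 11.1 at 0 h in endosperm, and 8.74 and 13.7 in embryo. The 3′ minus 5′ signal of the actin, GAPDH and cyclophilin controls averaged 3.34 at 24 h and 2.29 at 0 h in endosperm, and 1.51 and 1.67 in embryo. The 4 aleurone markers averaged 11.8 at 24 h (array range 11.7 to 11.9) and 9.83 at 0 h (8.91 to 10.6) in endosperm, a rise carried by AMY1A (6.06) and GAMYB (2.25), whereas AMY3A (-0.09) and R1C-Prx (-0.17) did not pass the test. In embryo the 8 starchy endosperm markers averaged 3.97 at 24 h (3.70 to 4.50) and 7.53 at 0 h (7.46 to 7.61), and the 2 embryo markers 8.73 (8.60 to 8.82) and 7.34 (7.28 to 7.39). In endosperm the 2 embryo markers averaged 4.39 (3.87 to 4.98) at 24 h and 3.14 (2.86 to 3.43) at 0 h. The part of these readouts in the results was not tested.

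Both genes of a pair could be compared within each array. The difference of the log2 signals of both genes was taken within each array and compared between 24 h and 0 h, for 6 pairs in each tissue. The relative signal of eIF-4A-3 over eIF-4A-1 changed by 1.30 in endosperm and by 1.60 in embryo, that of RPS10-1 over RPS10-2 by 0.85 and 0.59, and that of RACK1B over RACK1A by 0.73 and 0.31. RPS10-2 had 10.70, 10.50 and 10.58 in endosperm at 24 h, against 10.04, 9.84 and 9.82 at 0 h, and in embryo 12.56, 12.57 and 12.42 at 24 h, against 12.09, 12.22 and 12.21 at 0 h. RACK1A in embryo had 11.84, 11.71 and 11.95 at 24 h, against 10.78, 11.10 and 11.09 at 0 h.

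The relative signal of RPL39C over RPL39B, which code for protein L39, changed by 0.52 in endosperm and 0.28 in embryo. RPL39C had 11.29, 11.14 and 11.29 in endosperm at 24 h, against 9.85, 9.81 and 10.07 at 0 h, and in embryo 12.12, 12.28 and 12.05 at 24 h, against 11.45, 11.39 and 11.57 at 0 h. RPL39B had 12.38, 12.12 and 12.22 in endosperm at 24 h, against 11.53, 11.39 and 11.38 at 0 h, and in embryo 13.45, 13.48 and 13.46 at 24 h, against 13.11, 13.07 and 13.00 at 0 h. Every gene and tissue of this pair is higher at 24 h with no overlap, and the probe set of RPL39C may match several transcripts. For RPL7A-2 over RPL7A-1, genes for protein L7a, the relative signal changed by 0.41 in endosperm and 0.35 in embryo. RPL7A-2 had 10.58, 10.43 and 10.61 in endosperm at 24 h, against 9.67, 9.77 and 9.85 at 0 h, and in embryo 12.41, 12.40 and 12.36 at 24 h, against 12.00, 11.99 and 11.99 at 0 h. RPL7A-1 had 10.54, 10.35 and 10.55 in endosperm at 24 h, against 10.12, 10.12 and 10.10 at 0 h, while in embryo its arrays overlapped (12.61, 12.57 and 12.58 at 24 h, against 12.47, 12.67 and 12.49 at 0 h).

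RPS27AA over RPS27AB changed least among the pairs, by 0.18 in endosperm and 0.10 in embryo. RPS27AA had 12.17, 12.02 and 12.01 in endosperm at 24 h, against 10.92, 10.86 and 11.09 at 0 h, and in embryo 13.24, 13.32 and 13.12 at 24 h, against 12.58, 12.61 and 12.62 at 0 h. RPS27AB had 11.35, 11.35 and 11.35 in endosperm at 24 h, against 10.32, 10.37 and 10.57 at 0 h, and in embryo 13.03, 12.90 and 12.96 at 24 h, against 12.31, 12.55 and 12.44 at 0 h. In 11 of the 12 comparisons of a pair's relative signal the arrays of the 2 times did not overlap, the exception being RPS27AA over RPS27AB in embryo (exact permutation p = 0.5, two-sided). For the 11 the exact two-sided permutation p was 0.1, the smallest that 3 arrays against 3 allow, and 0.109 after adjustment over the 12, so no pair passed that test. The share of other gene pairs without overlap was not computed, and these pairs were listed with earlier results of these data known.

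Between tissues, nearly all members gave lower signals in endosperm than in embryo. At 0 h 33 of 34 were called lower in endosperm and 0 higher, where 23.2% of all probe sets were called lower and 2.37% higher, and at 24 h 30 were lower and 0 higher (22.5% and 2.98%). The 23 cytosolic ribosomal protein genes had a median difference of -2.19 at 0 h (range -2.69 to -1.35) and of -1.61 at 24 h. The factors had medians of -1.41 and -1.49. Over all probe sets the medians were -0.07 and -0.02. Over the 17905 genes read from their brightest probe sets, as the members were, the median was -0.88 at both times. The largest differences at 0 h were those of 60SP0 (-2.69 ± 0.07), RPS10-1 (-2.52 ± 0.11) and RPL3 (-2.46 ± 0.08). The 60SP0 arrays given above read 10.01 to 10.21 in dry endosperm and 12.66 to 12.86 in dry embryo. At 24 h they were those of RPL18 (-3.69 ± 0.15), RPL7A-1 (-2.11 ± 0.05) and 60SP0 (-2.09 ± 0.07). GOS2 was not called at either time on the probe set near the top of the scale (-0.38 and -0.29). Its second bright probe set just missed the call at both times (-0.96 and -0.99), and its dimmer one was called lower at 0 h (-1.90) and not at 24 h (-0.83). REFA1 (-0.96), RPL39C (-0.91) and RPS21 (-0.82) were not called at 24 h.

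**Figure D5:**
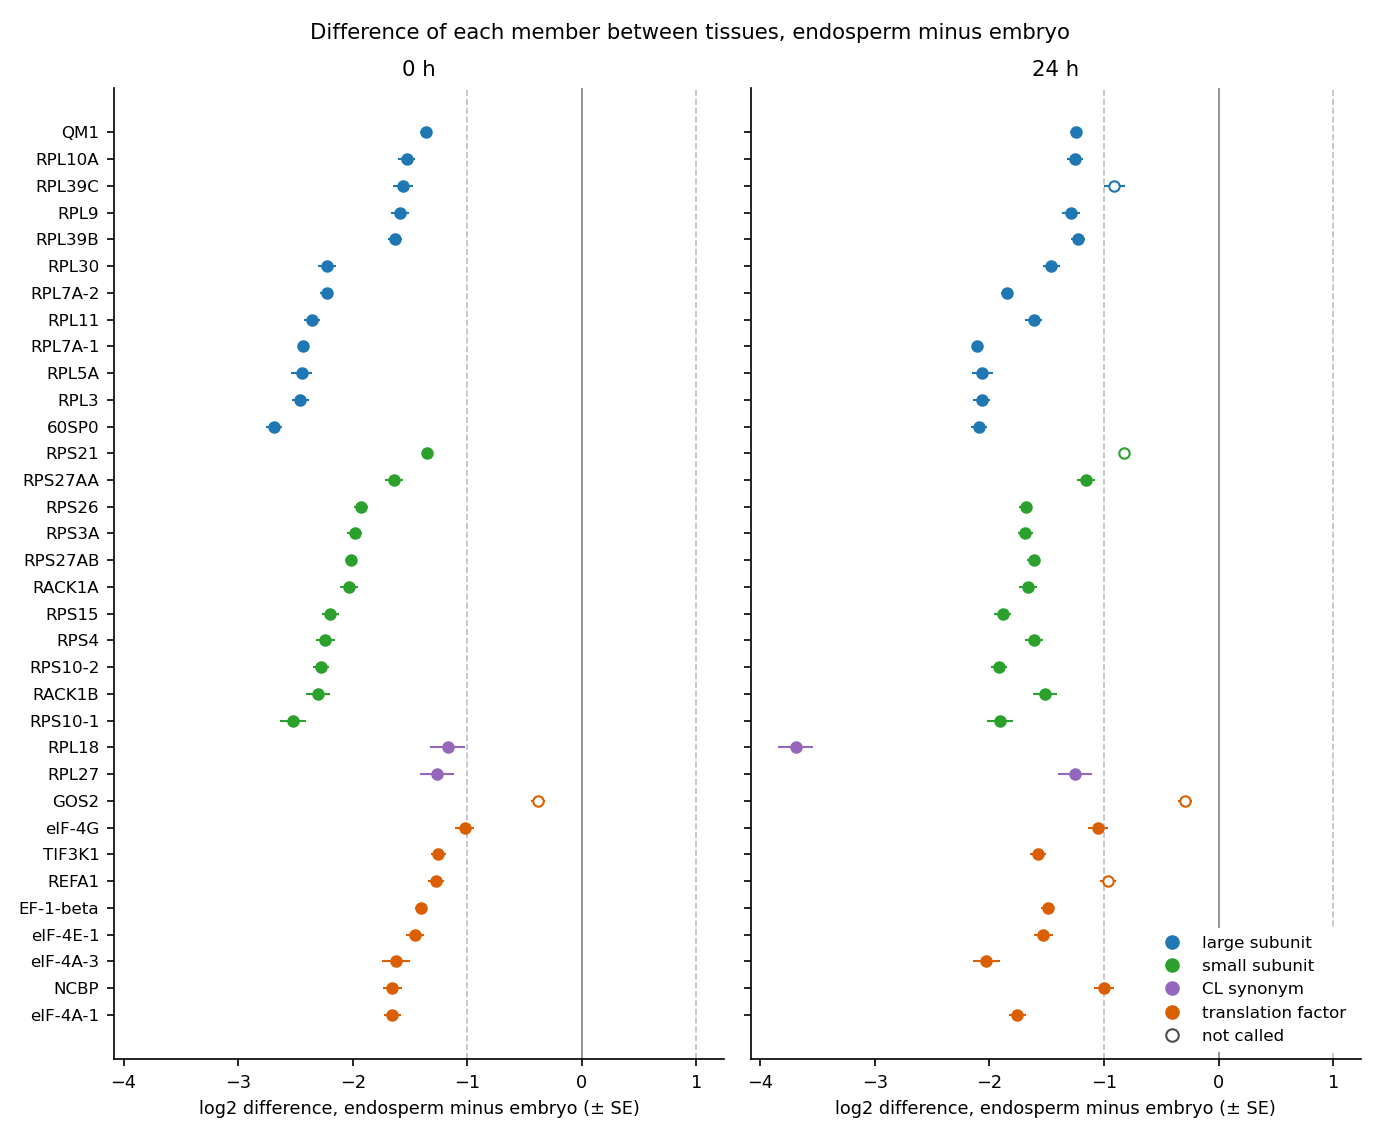
Log2 difference between endosperm and embryo (endosperm minus embryo, horizontal axis, with SE from the fit) for each of the 34 genes at 0 h (left) and 24 h (right), grouped by role. Filled points were called and dashed lines mark a log2 difference of 1. Every point lies left of 0, and most subunit genes lie closer to 0 at 24 h than at 0 h.

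The size of the tissue difference depends on the scaling. With every array centred on its 75th percentile, or quantile normalized, 12 of 34 were called lower in endosperm at 0 h, and centring on the spike-in controls gave 33. The share of all probe sets called lower then was 5.44%, 6.48% and 24.6%. All 23 cytosolic ribosomal protein genes kept a negative difference at 0 h under each of these, with medians of -1.03, -1.01 and -2.28. At 24 h the counts were 1, 6 and 33, where 6.64%, 7.98% and 26.1% of all probe sets were called lower, and the medians -0.40, -0.62 and -1.82, with 3 of 23 positive after centring on the 75th percentile and 1 after quantile normalization. Centring on the 75th percentile moved the median difference of all probe sets to 1.10 at 0 h and 1.19 at 24 h. The rRNA controls averaged 11.1 in endosperm and 13.7 in embryo at 0 h, and 7.04 and 8.74 at 24 h. The 3′ minus 5′ control signal averaged 2.29 in endosperm and 1.67 in embryo at 0 h, and 3.34 and 1.51 at 24 h. The part of these controls in the tissue differences was not tested.

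Beyond the members, 5 further genes of translation and ribosome assembly could be named by symbol. All 5 were lower in endosperm at 24 h and 4 of 5 at 0 h by the call rule. At 24 h against 0 h 0 of 5 were called in endosperm (7.33% of all probe sets higher and 4.57% lower) and 1 higher in embryo (12.0% and 10.1%), EIF4A3B, an eIF4A-III gene, which changed by 0.42 ± 0.08 in endosperm and by 1.11 ± 0.08 in embryo. RPS7 and rps20, ribosomal protein symbols, changed by 0.34 ± 0.09 and 0.65 ± 0.08 in endosperm, and by -0.49 ± 0.09 and 0.13 ± 0.08 in embryo. RRP46 and NUG2, symbols of rRNA processing and ribosome biogenesis genes, changed by -0.47 ± 0.14 and -0.49 ± 0.08 in endosperm, and by -0.79 ± 0.14 and -0.69 ± 0.08 in embryo.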

How the data were processed

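The deposited table holds log2 signals of 36 one-colour rice arrays, made by the authors with GCRMA, per the submitters' processing notes, which give no version. Per the labels' protocols biotin-labelled amplified cRNA was hybridised. The table lists 57381 probe sets, of which the tests used 57194, without 123 for array controls and 64 for reporters. A probe set was named where the array annotation gives 1 gene (22436 probe sets; 95 have several and 34663 none), updated through a RefSeq gene table used for names alone. Of the 34 members 23 had 1 probe set and 11 several. By their names, the probe sets used for QM1, RPL10A, RPL9, RPL39C, RPL18, RPL27, RPS3A and REFA1 may match several transcripts.

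The 12 groups were fitted as means over all arrays with limma 3.58.1 in R 4.3.3, with p-values adjusted by Benjamini-Hochberg over 57194 probe sets; the procedure was tested on simulated data. Array number limits the precision: there are 3 per group.

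The members and lists were chosen with earlier results of these data known. Array values are given for the 3 called members with the largest differences in each direction of each comparison and for 6 gene pairs. Alternatives were 3 scalings, a filter on dim probe sets, other moderation, fewer samples, no minimum fold, the mean over probe sets, replicate and harvest day blocks, and leaving out each array. The counts with no minimum fold under each scaling, the steps and each member's 24 h change under each scaling and the counts without RPL18 and RPL27 were added after seeing the data. For counts with no minimum fold, the share of all probe sets was computed on the deposited values alone. Same-numbered arrays deviated together, every correlation being over 0.1, only for endosperm at 4 h and 0 h (0.22, 0.13 and 0.15), so the numbers pair the arrays there by that rule; the tissue comparisons share only number 1, and a random block was used for those. Sequences and promoters were not used here.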

Additional observations from a re-analysis of the deposited data

Results flagged for a closer look

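RPL18 is listed because its 24 h change differed between tissues in a test of the difference itself: endosperm minus embryo was -2.52 ± 0.22 on the log2 scale (adjusted p = 6.78e-10, limma), with changes of 1.86 in endosperm and 4.38 in embryo. The difference kept its direction and its call under each of the 3 scalings and whichever array was left out.

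The same test was made by the adjusted p with no minimum fold, on the brightest probe sets. It gave a larger 24 h change in endosperm for 23 of the 34 members and a smaller one for 2. Of the 23, 21 were cytosolic ribosomal protein genes, or 19 with the mean over all probe sets of a gene. Leaving out single arrays gave 18 to 24 members. Under spike-in centring the count was 0 and under quantile normalization 11. The median differences of the 34 members were then 0.22 and 0.17, against -0.11 and 0.003 over all probe sets. Spike-in centring could not change the gap between these medians.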

How the results depend on the processing

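By the call rule, the number of the 34 members called changed most with the scaling. At 0 h the 33 members lower in endosperm became 12 when centred on the 75th percentile and 12 under quantile normalization, and at 24 h the 30 became 1 and 6. For embryo at 24 h the 4 calls became 10 under spike-in centring, where 15.0% of all probe sets were called higher and 7.56% lower. They became 7 under quantile normalization (10.4% and 10.7%). For endosperm at 24 h the 11 became 6 under 75th percentile centring (5.14% and 7.46%) and 19 under spike-in centring (9.62% and 3.31%). Over 6 times the 6 embryo calls became 14 (spike-in, 29.3% of all probe sets) and 10 (quantile, 27.4%). Genes with all 12 h arrays above all 4 h arrays numbered 4 in endosperm and 9 in embryo under spike-in centring. With no minimum fold the counts were 11 and 29 for embryo at 4 h and 24 h, 4 and 32 for endosperm, 25 for the difference of changes, and 32 and 34 over 6 times in embryo and endosperm. Without RPL18 and RPL27 the difference of changes had 0 calls.

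Tissue differences that turned positive at 0 h were those of eIF-4G (0.142 under 75th percentile centring, 0.276 when quantile normalized), RPL27 (0.0554) and TIF3K1 (0.0124), both under quantile normalization. At 24 h they were those of NCBP (0.211 and 0.212 under the same 2 scalings), eIF-4G (0.162 and 0.15) and RPS27AA (0.0556 under 75th percentile centring). Leaving out single arrays gave 32 to 33 and 29 to 30 calls between tissues at 0 h and 24 h, 1 to 1 and 4 to 5 in embryo at 4 h and 24 h, 1 to 1 and 10 to 12 in endosperm, 1 to 1 for the difference, and 6 to 6 (embryo) and 13 to 16 (endosperm) over 6 times. Besides NCBP, single arrays decided the call of eIF-4G at 0 h (-0.96 without embryo replicate 4, -0.92 without endosperm replicate 2). With the replicate block the counts were 33, 30, 1, 4, 1, 11, 1, 6 and 15, as without it, so the pairing changed no call count; for endosperm at 4 h it gave 1. The cause of these shifts was not tested. Dim probe sets such as that of RPL18 in dry endosperm limit the fold that can be read.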
